A study of Homo sapiens with 12 samples.

Results

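The response to hydroxychloroquine (HCQ) evolution was compared between the cell line labels OVCAR3 and CCL218, to find genes whose change with HCQ evolution depended on the label. All 12 libraries of the series entered this comparison, and 12613 of the 28278 genes in the count table were tested, chosen as those with a level of 1 CPM or more (CPM, counts scaled to library size) in at least 3 of the libraries. For each gene, the log2 fold change of HCQ-evolved over control pools in CCL218 minus the same log2 fold change in OVCAR3 is called the difference here, so that a difference above 0 means a higher change in CCL218. By their labels, OVCAR3 cells come from ovarian cancer and CCL218 cells from colorectal cancer. HCQ-evolved cells had received 15 pulses of HCQ of 48 h each and then grew for 7 days without drug before polyadenylated RNA was taken, and control cells were passaged without HCQ. Wells of one 96-well plate per group were combined by position into a left (L), middle (M) and right (R) pool, which gave 3 pools in each of 4 groups. HCQ-evolved libraries are labelled passage 15 and control libraries passage 19, so that drug, passage and plate cannot be told apart. As the pools of a group shared a plate, p-values measure only the spread between such pools, which may be technical.

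HCQ is a weak base that collects in lysosomes, raises their pH and so blocks the last step of autophagy, by which cells break down and reuse their own contents. Several of the genes described here are immediate early genes. These are transcribed within minutes of a signal from growth factors, stress or calcium, without any need for new protein, and their short-lived transcripts encode transcription factors of the FOS, JUN, EGR, NR4A and KLF families that pass the signal on to later genes. Immediate early genes are read as a sign of how strongly pathways such as EGFR, RAS and ERK are active in a cell.

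The libraries held 31147822 to 59965861 counts. HCQ-evolved OVCAR3 R and control CCL218 L stood apart from the other pools of their own group, with standard deviations of 0.78 and 0.658 on the log2 scale across genes, against 0.209 to 0.533 in the other 10 libraries. Libraries under both labels expressed genes of intestinal epithelium. The summed level of the intestinal markers was 294 to 1309 CPM in pools labelled OVCAR3 and 1386 to 1925 CPM in pools labelled CCL218, and VIL1, a protein of intestinal microvilli, was at 237, 290.1 and 197 CPM in control OVCAR3 (pools L, M and R). The summed level of markers of the Muellerian tract and serous ovarian cancer was 400.2 to 878.6 CPM under the OVCAR3 label and 288.5 to 526.9 CPM under the CCL218 label, with the protease KLK6 contributing most under both, and 8 of 12 members passed the filter. Of these markers, SOX17 had no count in any library, EMX2 and ESR1 stayed below 0.1 CPM, and WT1 was at 0.103 to 2.354 CPM under the OVCAR3 label and 0.197 to 1.388 CPM under the CCL218 label. PAX8 was at 14.9, 9.29 and 11.9 CPM in control OVCAR3 and 11.2, 7.29 and 6.402 CPM in control CCL218. Across all genes, 0 were at 5 CPM or more in every pool of one label and at 1 CPM or less in every pool of the other. The labels were kept as given, and OVCAR3 and CCL218 below mean the libraries so labelled. Whether the labels stand for distinct lines was not tested. A difference between labels is thus not shown to be one between ovarian and colorectal cells. The B cell marker MS4A1 had no count in any library, the leukocyte marker PTPRC reached 0.0821 CPM and the endothelial marker VWF reached 0.219 CPM.

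The change with HCQ evolution differed between the labels for 110 of 12613 genes (0.872%) at a Benjamini-Hochberg adjusted p under 0.05, by the quasi-likelihood F test of edgeR, and for 1149 genes (9.11%) at an unadjusted p under 0.05. The change was higher in CCL218 for 87 genes (0.690%) and lower for 23 (0.182%). For most of these genes the change was called under 1 label and missed the threshold under the other, which does not show that they did not change there. For 49 genes the fall in OVCAR3 was called and the change in CCL218 was not, and for 9 genes the rise in OVCAR3 alone was called. In CCL218 alone, 21 genes rose and 10 fell. A further 12 genes were called in both labels with opposite signs, 8 in both with the same sign and a different size, and 1, the copper transporter ATP7B, in neither (-0.53 in OVCAR3 and 0.65 in CCL218). Beside these counts, 558 of all tested genes (4.42%) rose and 607 (4.81%) fell in OVCAR3, and 361 (2.86%) rose and 293 (2.32%) fell in CCL218, in the same fit.

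**Figure D1:**
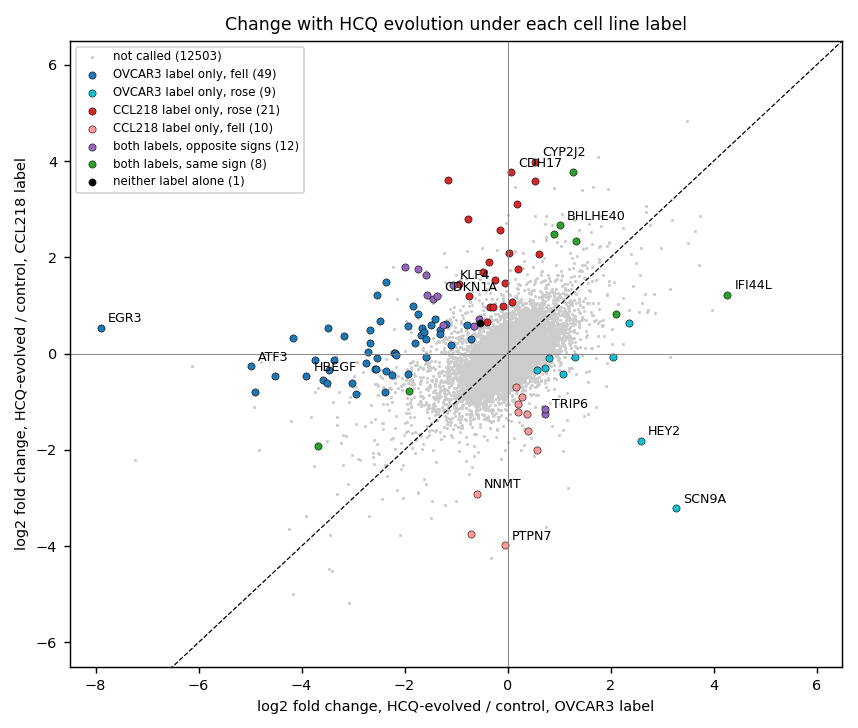
Log2 fold change of HCQ-evolved over control pools for each of 12613 genes, under the OVCAR3 label (horizontal axis) and the CCL218 label (vertical axis), each from 3 pools against 3. Coloured points are the 110 genes whose change differed, by the label in which the change was called, and the dashed line marks equal change. The 49 genes that fell in OVCAR3 alone lie to the left, with a median of -2.38 in OVCAR3 and 0.18 in CCL218.

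Across all tested genes the changes under the labels had a Pearson correlation of 0.553, given as a description because genes are not independent. The fitted signs were opposite for 26.5% of all tested genes and for 69 of the 110 called genes (62.7%). The second share is raised by the choice of genes with a large difference and is not a separate result. In control pools 431 genes (3.42%) differed between the labels and in HCQ-evolved pools 1648 (13.1%). Of the 110 genes, 67 differed between labels in HCQ-evolved pools only, 17 in control pools only, 15 in both with the same sign and 11 in both with opposite signs. Thus 11 of these genes were higher under one label in control pools and lower under it in HCQ-evolved pools.

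Without any single library the number of calls ranged from 38, without HCQ-evolved CCL218 M, to 212, without HCQ-evolved OVCAR3 R, and without control CCL218 L it was 111. With the trend of each library with transcript length and GC content removed, 241 genes were higher and 211 lower in CCL218, so that the share of higher calls was 53.3% against 79.1% as first given.

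Of the gene lists, the immediate early genes had the most calls. This list, like the others, was drawn up with earlier results of these data known. Its counts are therefore a description and not a test. Of 28 tested genes of the list of immediate early and AP-1 genes, 15 had a higher change in CCL218 (against 0.690% of all tested genes) and 0 a lower one, and all 28 differences were above 0. In OVCAR3, 23 of the 28 genes fell and 0 rose (beside 4.81% and 4.42% of all tested genes), with a median log2 fold change of -1.31. In CCL218 0 fell and 2, KLF2 and KLF4, rose (beside 2.32% and 2.86%), with a median of 0.17. The median difference was 1.64, beside -0.03 for all tested genes. With DESeq2 21 of them were called higher, with limma voom 16, and without both libraries that stood apart 20. The summed level of the list was 9632 to 10520 CPM in control OVCAR3 and 3528 to 4791 CPM in HCQ-evolved OVCAR3, and it was 6669 to 7630 CPM in control and 8195 to 9768 CPM in HCQ-evolved CCL218.

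The start of transcription of these genes is shown for FOS, FOSB and EGR2, which fell together in OVCAR3, as RefSeq promoter windows of 300 bases on GRCh38.p14, from 250 bases before to 50 bases after the start. Capitals mark the half-site TGACG of the cyclic AMP response element (both strands), the TATA box TATAAA (sense strand) and the CArG box, to which serum response factor binds. The FOS window is at chr14:75278578-75278877, plus strand, the FOSB window at chr19:45467746-45468045, plus strand, and the EGR2 window is the most downstream of its 3 windows, at chr10:62816317-62816616, minus strand. That window is printed because it holds these motifs, and the other windows of EGR2 hold 0 of them.
FOS: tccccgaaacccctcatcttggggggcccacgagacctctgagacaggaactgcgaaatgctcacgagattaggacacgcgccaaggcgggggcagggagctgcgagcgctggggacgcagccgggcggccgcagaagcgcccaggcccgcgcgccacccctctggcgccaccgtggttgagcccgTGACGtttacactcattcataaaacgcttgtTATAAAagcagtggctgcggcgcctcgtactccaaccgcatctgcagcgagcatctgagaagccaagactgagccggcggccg
FOSB: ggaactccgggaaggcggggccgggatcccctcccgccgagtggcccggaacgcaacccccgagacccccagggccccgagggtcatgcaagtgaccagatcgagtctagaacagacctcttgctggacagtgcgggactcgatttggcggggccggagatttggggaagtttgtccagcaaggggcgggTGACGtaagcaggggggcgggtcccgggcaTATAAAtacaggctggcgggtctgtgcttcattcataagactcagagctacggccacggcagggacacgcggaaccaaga
EGR2: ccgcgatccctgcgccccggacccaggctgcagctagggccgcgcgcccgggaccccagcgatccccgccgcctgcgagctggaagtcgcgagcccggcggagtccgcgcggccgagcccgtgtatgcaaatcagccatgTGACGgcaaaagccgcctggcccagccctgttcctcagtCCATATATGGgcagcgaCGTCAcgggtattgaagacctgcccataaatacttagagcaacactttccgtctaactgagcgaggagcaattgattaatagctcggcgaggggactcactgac
RefSeq windows were found for 20 of the 28 genes, 25 windows in all. The TGACG half-site lay in 13 of these (52%), beside 24.6% of all 35116 windows, the TATA box in 5 (20%, beside 7.33%) and the CArG box in 3 (12%, beside 1.29%). The full cyclic AMP response element TGACGTCA lay in 1 window (4%, beside 1.85%) and the AP-1 site TGANTCA in 1 (4%, beside 7.71%). The half-site and the TATA box were added after the data had been seen, and a match is a description of letters, not of binding.

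The EGR family, zinc finger factors induced by ERK, had 3 members among the calls. EGR3 was at 2.83, 4.33 and 3.13 CPM in control OVCAR3 and 0.0349, 0 and 0 CPM in HCQ-evolved OVCAR3, and at 1.03, 0.957 and 0.768 CPM in control and 1.89, 1.02 and 1.103 CPM in HCQ-evolved CCL218. The HCQ-evolved OVCAR3 pools held 2 counts of EGR3 in all, against 417 counts in control pools, a ratio of 282 after division of each sum by the summed library sizes of its group, with an exact 95% interval of 77.7 to 2340. The interval covers counting error only and is too narrow if both mates of a read pair were counted, in which case the 2 counts, both in pool L, may be 1 fragment. EGR2 was at 20.3, 47.8 and 32.1 CPM in control and 4.12, 2.51 and 2.24 CPM in HCQ-evolved OVCAR3. In CCL218 it was at 16.3, 17.5 and 16.5 CPM in control and 26.8, 22.6 and 23.8 CPM in HCQ-evolved pools. All HCQ-evolved OVCAR3 pools thus lay below every other pool for both genes, and the EGR2 difference was 4.03 (standard error 0.42, adjusted p = 0.0019). EGR4 had a difference of 2.40, while EGR1 was not called (1.69, adjusted p = 0.0954).

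ATF3, a stress-induced factor of the ATF/CREB family (plus strand of chromosome 1 from 212565334 to 212620777, GENCODE 44 on hg38), was at 217, 194 and 164 CPM in control OVCAR3 and 7.72, 4.71 and 5.77 CPM in HCQ-evolved OVCAR3. In CCL218 it was at 59.1, 29.5 and 25.4 CPM in control and 43.4, 26 and 26.1 CPM in HCQ-evolved pools, which overlapped. The fall in OVCAR3 was -4.98 and the CCL218 change -0.26, a difference of 4.72 (standard error 0.48, adjusted p = 0.00167, edgeR). Control CCL218 L, which stood apart, held the highest level of its group for 11 of the 15 called immediate early genes, ATF3 among them. Without that library 16 immediate early genes were called. Pools of control and HCQ-evolved cells did not overlap for 25.9% of all tested genes in OVCAR3 and for 35.8% in CCL218.

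The subunits of AP-1, the dimeric factor of FOS and JUN proteins, were in part among the calls. JUN was at 2114, 1639 and 1411 CPM in control and 610.2, 532 and 338 CPM in HCQ-evolved OVCAR3, and at 1681, 1038 and 974 CPM in control and 1614, 1378 and 1344 CPM in HCQ-evolved CCL218. FOSB was at 718, 882 and 763 CPM in control and 140.2, 100.4 and 111 CPM in HCQ-evolved OVCAR3. In CCL218 it was at 340.3, 198 and 184 CPM in control and 258, 171 and 203 CPM in HCQ-evolved pools. The differences were 2.03 for JUN (adjusted p = 0.0357) and 2.56 for FOSB (adjusted p = 0.00613), and the OVCAR3 pools did not overlap for either. FOS, at 1134, 1282 and 1343 CPM in control and 827, 826 and 516 CPM in HCQ-evolved OVCAR3, was at 1031, 847 and 851 CPM in control and 1554, 1307 and 1234 CPM in HCQ-evolved CCL218, a change that was not called there, and its difference was 1.38 (unadjusted p = 0.000426, adjusted p just under 0.05). FOSL1, FOSL2, JUNB and JUND were not called, with differences of 0.59, 0.41, 1.26 and 0.77.

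Orphan nuclear receptors NR4A1 and NR4A2 differed by 2.90 and 1.58, and ARC, a regulator of synaptic receptors that is also induced by ERK, by 2.45. CCN1 and CCN2, secreted matrix proteins and targets of YAP as well as of serum response factor, differed by 2.14 and 3.60. CCN2 was at 55.2, 109 and 108 CPM in control and 8.52, 9.69 and 2.29 CPM in HCQ-evolved OVCAR3. BTG2, which restrains proliferation and is a target of p53, differed by 2.27. Without single libraries 8 to 16 of the 28 immediate early genes were called, and with the other alternatives 9 to 22.

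**Figure D2:**
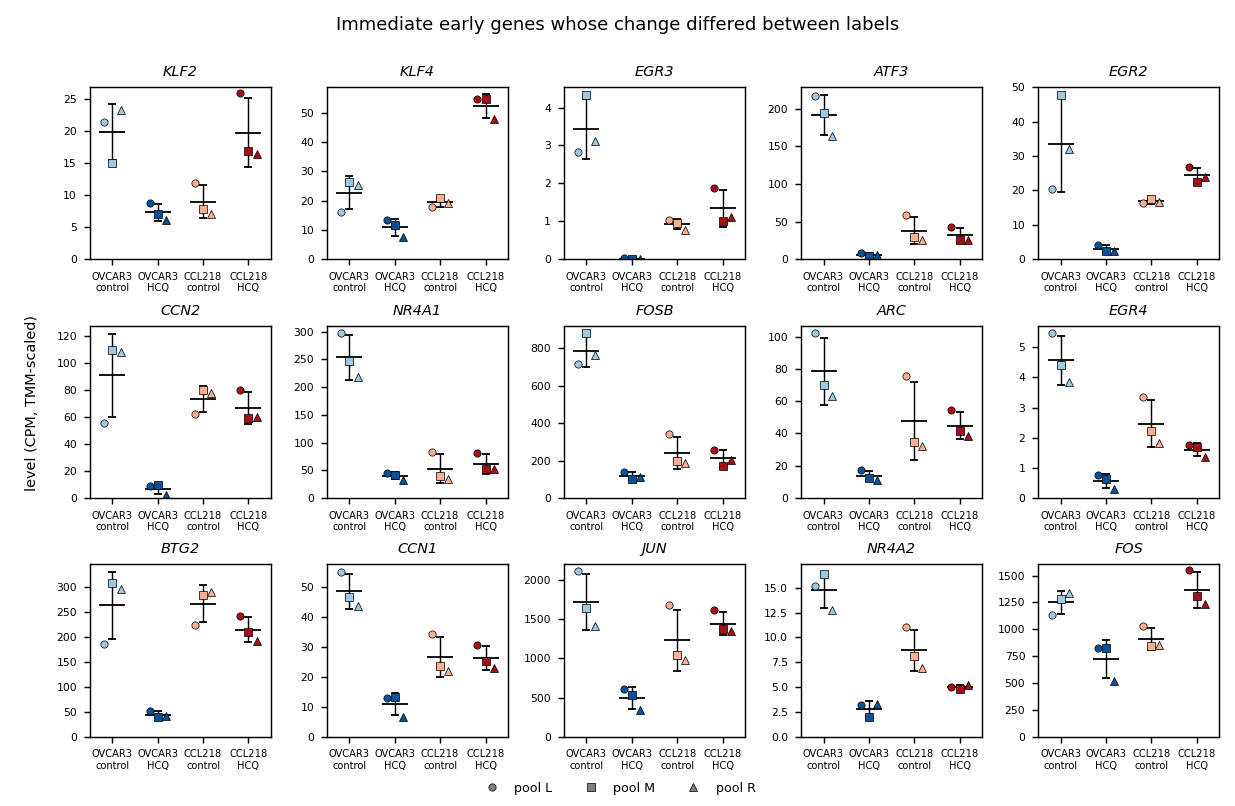
Level in CPM (vertical axis, from 0) of the 15 immediate early genes whose change differed, in each pool of the 4 groups, with the group mean and SD of 3 pools as horizontal line and whiskers. Every HCQ-evolved OVCAR3 pool lies below every other pool for 13 of the 15 genes, the exceptions being KLF2 and NR4A1. The genes were chosen by the difference, which a low HCQ-evolved OVCAR3 group raises. The share of all tested genes with this order was not computed.

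In the lists of EGFR ligands and receptors and of ERK feedback regulators, 2 genes were called. HBEGF, a ligand of the EGF receptor (minus strand of chromosome 5 from 140332843 to 140346603), had the smallest p of all genes. It was at 54.7, 53.6 and 59.4 CPM in control and 4.02, 3.704 and 3.46 CPM in HCQ-evolved OVCAR3. In CCL218 it was at 12.7, 11.6 and 13.1 CPM in control and 9.75, 8.09 and 9.18 CPM in HCQ-evolved pools. The difference was 3.43 (standard error 0.19, adjusted p = 1.09e-05, edgeR). Control OVCAR3 pools were the highest and HCQ-evolved OVCAR3 pools the lowest, with both CCL218 groups between them. Of the 10 tested EGFR ligands and receptors HBEGF was the 1 called (10%, beside 0.690% higher among all tested genes), and AREG, another ligand, had a difference of 1.06 (adjusted p = 0.52). DUSP5, a nuclear phosphatase that inactivates ERK, was at 35.3, 36.99 and 36.5 CPM in control and 5.87, 6.79 and 3.9 CPM in HCQ-evolved OVCAR3, and at 8.798, 8.27 and 6.402 CPM and 9.24, 7.12 and 7.76 CPM in CCL218, where the pools overlapped. Its difference was 2.75 (adjusted p = 0.00199), and it was the 1 called of 19 ERK feedback regulators (5.26%, beside 0.690%), with a list median difference of 0.14. DUSP6 and SPRY4, also ERK feedback genes, had differences of 0.44 and 0.50 and were not called.

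Further genes that fell in OVCAR3 alone included TRIB1, a pseudokinase that directs proteins to degradation, at 736, 951 and 924 CPM in control and 302, 289.9 and 257 CPM in HCQ-evolved OVCAR3, and at 437, 523 and 510.4 CPM and 711, 674 and 613 CPM in CCL218. HES1, a repressor downstream of Notch, was at 1261, 645 and 814 CPM in control and 126, 117 and 57.8 CPM in HCQ-evolved OVCAR3. It fell by 3.18 on the log2 scale in OVCAR3, against a change of 0.36 in CCL218. CCND1, the cyclin that carries cells from G1 into S phase, was at 179.9, 208 and 151 CPM in control OVCAR3. In HCQ-evolved OVCAR3 it was at 89.97, 88.01 and 73.3 CPM. It was at 201, 244 and 231 CPM in control and 239, 253 and 273 CPM in HCQ-evolved CCL218. Its difference was 1.28 (adjusted p = 0.0178, edgeR). Pools of OVCAR3 did not overlap for TRIB1, HES1 or CCND1. INSR, the insulin receptor, fell by 1.92 in OVCAR3 with a change of 0.58 in CCL218, and PCK1, an enzyme of gluconeogenesis, had -2.35 and 1.48. RASD1, a small GTPase induced by glucocorticoids, and PTP4A3, a phosphatase, had differences of 4.11 and 4.50, the latter at 1.13 CPM or less in OVCAR3.

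MUC5B, a gel-forming mucin, and EPHB2, a receptor that positions cells along the intestinal crypt and a WNT target, also fell in OVCAR3 alone. MUC5B was at 20.3, 22.04 and 17.3 CPM in control and 6.096, 6.48 and 4.22 CPM in HCQ-evolved OVCAR3, and at 6.02, 4.72 and 2.35 CPM and 8.37, 10.4 and 7.04 CPM in CCL218. EPHB2 was at 10.6, 8.42 and 9.43 CPM and 2.04, 1.79 and 4.703 CPM in OVCAR3 and at 7.03, 7.09 and 8.34 CPM and 14.9, 12.3 and 12.8 CPM in CCL218. All HCQ-evolved CCL218 pools lay above all control CCL218 pools for both genes, although neither change was called there. The differences were 2.81 and 2.57 (adjusted p = 0.0126 and 0.0197), and each gene was the 1 called of its list, of 15 mucins and trefoil factors (6.67%) and of 13 WNT feedback and stem cell genes (7.69%), beside 0.690% higher among all tested genes. DESeq2 called 3 and 1 in these lists. Of the 49 genes that fell in OVCAR3 alone, 43 were higher in CCL218 among HCQ-evolved pools and 13 were lower in CCL218 among control pools. The difference equals the gap between labels in HCQ-evolved pools minus that in control pools. These counts thus follow in part from how the genes were chosen. The shares of all tested genes, 6.67% and 2.07%, are therefore no baseline for them.

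Of the 12 genes called under both labels with opposite signs, 10 fell in OVCAR3 and rose in CCL218. CDKN1A (plus strand of chromosome 6 from 36676460 to 36687337) encodes p21, an inhibitor of cyclin-dependent kinases that p53 and KLF4 can induce. It was at 59.9, 66.2 and 69.2 CPM in control and 28.02, 21.5 and 26.2 CPM in HCQ-evolved OVCAR3. In CCL218 it was at 19.02, 19.2 and 20.7 CPM in control and 52.3, 41.5 and 40.9 CPM in HCQ-evolved pools. The order of the groups was thus reversed, with no overlap between control and HCQ-evolved pools under either label, a difference of 2.56 (standard error 0.21, adjusted p = 0.000539, edgeR). Of 7 cyclin-dependent kinase inhibitors tested it was the 1 called (14.3%, beside 0.690%), and CDKN1B, or p27, had a difference of 0.08.

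KLF4 (minus strand of chromosome 9 from 107484852 to 107490482), a factor of differentiated gut epithelium, was at 16.2, 26.5 and 25.4 CPM in control and 13.4, 11.5 and 7.72 CPM in HCQ-evolved OVCAR3, and at 17.9, 20.9 and 19.3 CPM in control and 54.7, 54.7 and 47.7 CPM in HCQ-evolved CCL218. KLF2 was at 21.3, 14.9 and 23.3 CPM and 8.73, 7.02 and 6.04 CPM in OVCAR3 and at 11.8, 7.77 and 7.11 CPM and 25.8, 16.9 and 16.4 CPM in CCL218. Pools did not overlap between control and evolution for either gene under either label. MAFF, a small MAF factor that partners NRF2, was at 96.9, 84.1 and 86.7 CPM and 61.99, 64.1 and 56.3 CPM in OVCAR3, and at 58.7, 46.5 and 47.8 CPM and 93.7, 84.1 and 75.5 CPM in CCL218. The differences were 2.50, 2.60 and 1.28 (adjusted p = 0.00474, 0.0089 and 0.0131).

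The other genes of this direction were MMP14, a membrane-bound matrix protease (-0.66 in OVCAR3 and 0.58 in CCL218), CKAP4, a membrane protein of the endoplasmic reticulum (-1.26 and 0.59), RASD2, a small GTPase (-1.56 and 1.21), SYT17, a synaptotagmin (-1.58 and 1.62), ID3, an inhibitor of basic helix-loop-helix factors (-1.74 and 1.75), and BNIP5 (-1.98 and 1.80). ID3 and BNIP5 were low, at 0.234 to 2.44 CPM over all pools. The reverse was found for TRIP6, an adaptor protein of focal adhesions, and ZNF655, a zinc finger gene, which rose in OVCAR3 and fell in CCL218. TRIP6 was at 38.3, 34.1 and 41.3 CPM in control and 64.3, 70.5 and 52.2 CPM in HCQ-evolved OVCAR3, and at 19.6, 16.04 and 17.7 CPM and 7.18, 6.39 and 8.91 CPM in CCL218. Both lie near each other on the long arm of chromosome 7, TRIP6 at 100867387 to 100873454 and ZNF655 at 99558406 to 99576453 (hg38, plus strand), with differences of -1.96 and -1.86.

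**Figure D3:**
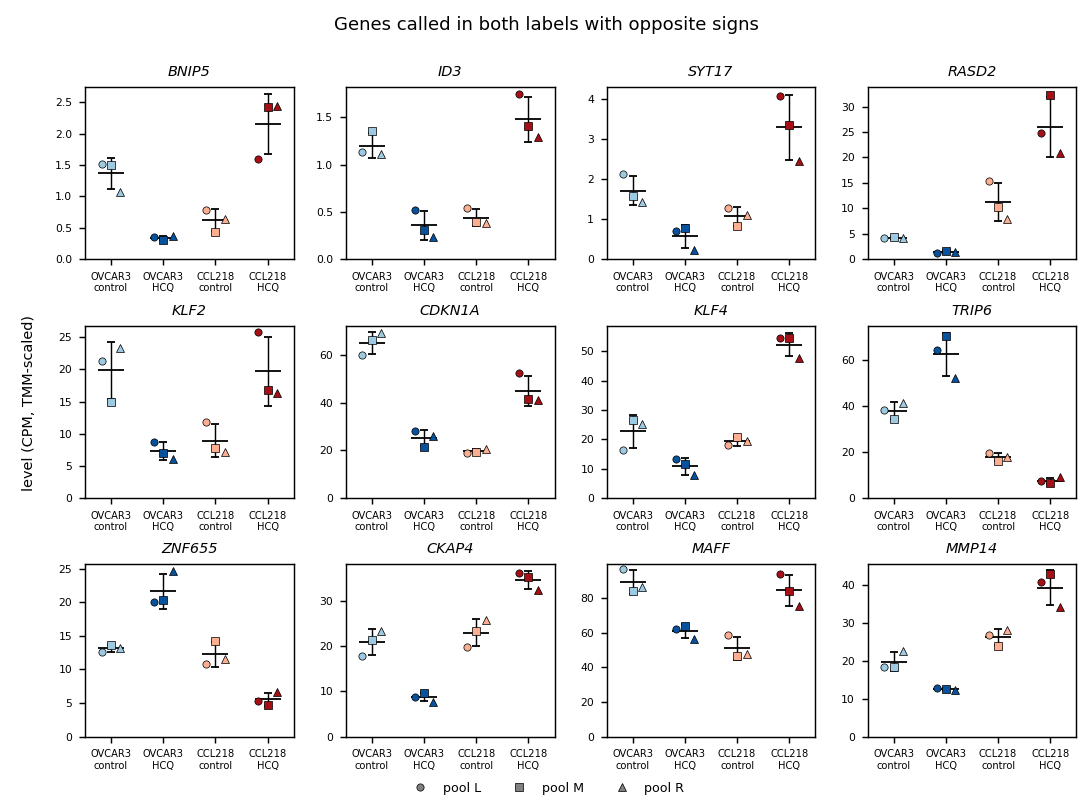
Level in CPM (vertical axis, from 0) of the 12 genes called under both labels with opposite signs, in each pool of the 4 groups, with the group mean and SD of 3 pools as horizontal line and whiskers. The other panels fall from control to HCQ in OVCAR3 and rise in CCL218, while TRIP6 and ZNF655 do the reverse.

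Among the 21 genes that rose in CCL218 alone, CDH17, the cadherin of intestinal epithelium, stood at 2.73, 3.77 and 3.52 CPM in control and 4.26, 4.51 and 1.71 CPM in HCQ-evolved OVCAR3, and at 2.43, 4.87 and 4.22 CPM in control and 44.9, 57.4 and 55.3 CPM in HCQ-evolved CCL218. All HCQ-evolved CCL218 pools lay far above the other 9, a difference of 3.71 (standard error 0.49, adjusted p = 0.00555, edgeR). CEACAM6 (plus strand of chromosome 19 from 41750977 to 41772211), a cell surface glycoprotein of carcinomas, was at 2.48, 4.33 and 2.59 CPM and 1.54, 1.505 and 2.46 CPM in OVCAR3, and at 11.3, 17.3 and 15.2 CPM and 92.3, 122 and 89.2 CPM in CCL218. CEACAM5, or carcinoembryonic antigen, rose in CCL218 by 2.10 with a change of 0.03 in OVCAR3, and CEACAM7 by 3.10 with 0.19. These 3 genes lie in one cluster of close paralogs, which may share reads. In control pools too, CEACAM6 and CEACAM5 were higher in CCL218 than in OVCAR3, without overlap.

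CDH17, CEACAM5 and EPHB2 were the 3 genes called of 15 intestinal markers (20%, beside 0.690% higher among all tested genes), with a list median difference of 1.24 and medians of -1.02 in OVCAR3 and -0.02 in CCL218. In OVCAR3 6 members fell and 0 rose, and in CCL218 3 rose and 3 fell. Of all tested genes, 4.42% rose and 4.81% fell in OVCAR3, and 2.86% rose and 2.32% fell in CCL218. DESeq2 called 7 and limma voom 4. Without HCQ-evolved OVCAR3 R 7 were called, and without control CCL218 L 2. CDX2, the factor that drives CDH17 in gut, had -0.81 in OVCAR3 and 1.54 in CCL218 and was not called (2.35, adjusted p = 0.317). HCQ-evolved OVCAR3 R, a library that stood apart, had 294 CPM of summed intestinal markers, against 682.5 and 745.8 CPM in M and L.

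CYP2J2 (minus strand of chromosome 1 from 59893308 to 59926773), which turns arachidonic acid into epoxides, was at 0.361, 0.314 and 0.407 CPM in control and 0.454, 0.656 and 0.469 CPM in HCQ-evolved OVCAR3, and at 0.491, 0.413 and 0.384 CPM and 6.04, 7.54 and 6.87 CPM in CCL218, a difference of 3.46 (standard error 0.35, adjusted p = 0.00167, edgeR). SLC6A8, the creatine transporter, was at 214, 221 and 212 CPM in control and 977, 983 and 769.5 CPM in HCQ-evolved CCL218, with 182, 192 and 176 CPM and 320, 325 and 191 CPM in OVCAR3, where the change of 0.60 was not called. ATP1B1, a subunit of the sodium pump, was at 344, 322 and 321 CPM and 711, 751 and 623 CPM in CCL218 and at 350.4, 374 and 368 CPM and 408, 422 and 334 CPM in OVCAR3. SERPINE2 and TIMP2, both inhibitors of extracellular proteases, had differences of 1.78 and 1.07. MEP1A, a brush border protease, had a difference of 4.78 but reached only 1.46, 1.95 and 1.59 CPM in HCQ-evolved CCL218. MEP1A and CYP2J2 were below 1 CPM in all other pools, so both passed the filter only through the group where they were high.

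Of the 10 genes that fell in CCL218 alone, NNMT, which methylates nicotinamide, was at 33.1, 20.1 and 23.2 CPM in control and 2.92, 2.405 and 4.83 CPM in HCQ-evolved CCL218, and at 95.2, 52.2 and 72.03 CPM and 44.98, 58.5 and 41.4 CPM in OVCAR3, where the pools overlapped. PTPN7, a phosphatase that acts on ERK and p38 kinases, was at 4.47, 4.48 and 4.91 CPM and 0.452, 0.146 and 0.284 CPM in CCL218, and at 10.98, 8.67 and 7.07 CPM and 5.12, 5.904 and 14.7 CPM in OVCAR3. The differences were -2.31 and -3.93 (adjusted p = 0.0336 and 0.0133). AASS, an enzyme of lysine breakdown, and CNKSR3, a scaffold protein, differed by -3.05 and -2.58 at levels of 3.18 CPM or less. AASS was at 1 CPM or more only in control CCL218 and passed the filter only through that group.

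**Figure D4:**
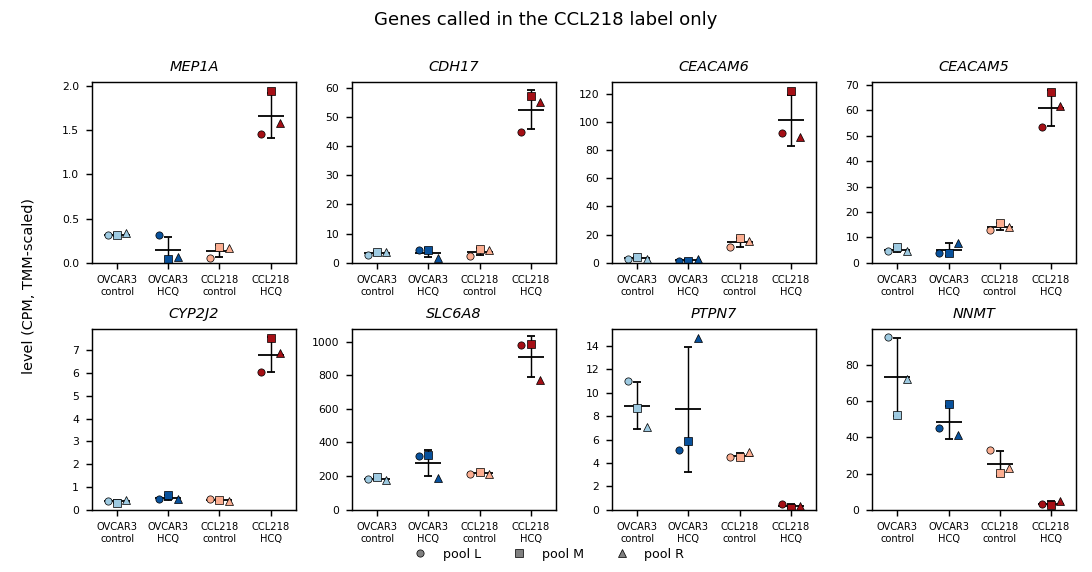
Level in CPM (vertical axis, from 0) of 8 genes called in CCL218 alone, in each pool of the 4 groups, with the group mean and SD of 3 pools as horizontal line and whiskers. The first 6 genes are highest in HCQ-evolved CCL218, and PTPN7 and NNMT are lowest there.

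Of the 9 genes that rose in OVCAR3 alone, 2 belong to the DNA replication machinery. RFC3, a subunit of the clamp loader (plus strand of chromosome 13 from 33818069 to 33966558), was at 22.6, 25.7 and 27.7 CPM in control and 53.1, 53.5 and 54.1 CPM in HCQ-evolved OVCAR3, and at 17.6, 25.6 and 27.1 CPM and 17.8, 17.2 and 17.8 CPM in CCL218, a difference of -1.50 (standard error 0.23, adjusted p = 0.0121, edgeR). POLA2, a subunit of DNA polymerase alpha (plus strand of chromosome 11 from 65261913 to 65305959), was at 34.4, 31.6 and 33.8 CPM and 59.2, 54.6 and 61.5 CPM in OVCAR3 and at 32.8, 32.5 and 37.3 CPM and 32.8, 29.5 and 33.9 CPM in CCL218. The OVCAR3 pools did not overlap for either gene, and the CCL218 pools did for both. These were the 2 genes called lower in CCL218 of 49 DNA replication genes (against 0.182% of all tested genes), of which 46 had a difference below 0, with a median of -0.49 and medians of 0.53 in OVCAR3 and 0.05 in CCL218. DESeq2 called 7 lower and limma voom 2, and 7 were lower without both libraries that stood apart. RFC3 lies between 30 and 40 Mb of chromosome 13, where 24 tested genes had a median difference of -0.78. POLA2 lies between 60 and 70 Mb of chromosome 11, where 204 tested genes had a median difference of -0.235. Whether the calls of RFC3 and POLA2 depend on these regions was not tested.

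For chromosome segregation, edgeR's test of the difference called 0 of 67 genes, and 23 had an unadjusted p under 0.05 (beside 9.11% of all). All 67 differences were below 0, with a median of -0.56. DESeq2 called 9 lower and limma voom 0, and without both libraries that stood apart edgeR called 0. In OVCAR3 40 of these genes rose and in CCL218 5, beside 4.42% and 2.86% of all tested genes. The medians were 0.91 and 0.33. The summed level was 3968 to 4305 CPM in control and 6552, 6830 and 9448 CPM in HCQ-evolved OVCAR3, with R highest. The CCL218 sum was 4133 to 4867 CPM in control and 5484 to 5946 CPM in HCQ-evolved pools. SKA3, a kinetochore protein, had the smallest p (-1.21, adjusted p = 0.0766, edgeR). It lies on chromosome 13 between 20 and 30 Mb, where 44 tested genes had a median difference of -0.723. TRIP13, an ATPase of the spindle checkpoint outside that list, rose in OVCAR3 alone, with 49.1, 48.9 and 53.2 CPM in control and 80.8, 79.97 and 89.2 CPM in HCQ-evolved OVCAR3, with 47.8, 47.7 and 53.5 CPM and 39.7, 37.9 and 43.97 CPM in CCL218. Condensin and cohesin genes had 0 calls of 21 with edgeR, and 5 had an unadjusted p under 0.05 (beside 9.11% of all). DESeq2 and limma voom called 0, and 2 were lower without both libraries that stood apart. The median difference was -0.43, with NCAPG2, a condensin subunit, at -1.08.

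The other genes of this group were COL16A1, a collagen of fibril surfaces, at 62.95, 63.02 and 67.5 CPM in control and 126, 155 and 199.8 CPM in HCQ-evolved OVCAR3 and at 28.5, 27.3 and 27.6 CPM and 26.8, 25.5 and 26.9 CPM in CCL218, MX2, which is described with the interferon-stimulated genes, GJB2, a gap junction protein (-0.91), KLHL5 (-2.11), HEY2, a Notch target (-4.40), and SCN9A, a sodium channel. SCN9A had the lowest difference of all called genes, -6.48, and HCQ-evolved OVCAR3 R stood far above the other pools. It was at 1.11, 0.597 and 0.666 CPM in control and 1.99, 1.85 and 18.9 CPM in HCQ-evolved OVCAR3, and at 1.72, 3.07 and 3.01 CPM and 0.164, 0.328 and 0.334 CPM in CCL218. Without that library the SCN9A difference was -4.49 (adjusted p = 0.0028, edgeR). HEY2 was at 2.2, 1.74 and 2.71 CPM in HCQ-evolved OVCAR3 and at 0.412 CPM or less in all other pools. It thus passed the filter only through the group where it was high.

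Interferon-stimulated genes, of which 2 were called, are induced when interferon or viral RNA activates their shared transcription factors. IFI44L (plus strand of chromosome 1 from 78619902 to 78646145) was at 0.309, 0.251 and 0.629 CPM in control and 9.15, 7.87 and 6.84 CPM in HCQ-evolved OVCAR3, and at 4.03, 3.33 and 3.5 CPM in control and 10.3, 5.48 and 9.55 CPM in HCQ-evolved CCL218. It thus rose under both labels, by 4.26 and 1.22, a difference of -3.04 (standard error 0.45, adjusted p = 0.0104, edgeR). The HCQ-evolved pools of the labels overlapped, and the control pools did not. MX2, which blocks viral entry to the nucleus, was at 1.13, 1.41 and 1.52 CPM and 8.14, 7.1 and 5.59 CPM in OVCAR3 and at 7.496, 6.09 and 5.1 CPM and 12.4, 7.47 and 9.04 CPM in CCL218, with a difference of -1.73. Control pools of both genes were thus lower under the OVCAR3 label.

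The promoter window of IFI44L (chr1:78620198-78620497, plus strand) shows 2 copies of the core GAAANNGAA of the interferon-stimulated response element, in capitals.
IFI44L: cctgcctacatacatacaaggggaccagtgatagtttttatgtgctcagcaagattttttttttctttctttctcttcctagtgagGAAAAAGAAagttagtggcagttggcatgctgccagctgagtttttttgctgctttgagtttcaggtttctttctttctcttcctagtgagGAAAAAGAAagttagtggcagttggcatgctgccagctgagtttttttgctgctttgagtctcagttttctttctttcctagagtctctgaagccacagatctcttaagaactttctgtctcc
RefSeq windows were found for 33 of the 47 tested interferon-stimulated genes, 44 windows in all, and 28 of these (63.6%) held the core on either strand, beside 8.11% of all windows. Of the 47 genes, 2 were called lower in CCL218 (against 0.182%) and 15 had an unadjusted p under 0.05 (beside 9.11% of all). For 36 the difference was below 0, with a median of -0.44. In OVCAR3 21 rose and 0 fell, beside 4.42% and 4.81% of all tested genes. In CCL218 5 rose and 1 fell, beside 2.86% and 2.32%. DESeq2 called 4 lower and limma voom 1, and without both libraries that stood apart 5 were lower and 1 higher. MX1, XAF1 and OAS2 had differences of -1.52, -1.71 and -1.25 and were not called. The summed level of the list, to which abundant members contribute most, was 1875 to 2458 CPM in control and 2457 to 2720 CPM in HCQ-evolved OVCAR3. The CCL218 sum was 2114 to 2686 CPM in control and 2463 to 2970 CPM in HCQ-evolved pools.

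Hypoxia targets, of which 2 were called, are induced when low oxygen stabilizes the factor HIF, which binds ACGTG. BHLHE40 (plus strand of chromosome 3 from 4979437 to 4985323), a repressor of the circadian clock and a HIF target, was at 36.5, 49.5 and 35.4 CPM in control and 80.6, 84.6 and 79.05 CPM in HCQ-evolved OVCAR3. In CCL218 it was at 20.6, 23.6 and 14.1 CPM and 126, 135 and 112 CPM, so that control pools were lower and HCQ-evolved pools higher than those of OVCAR3, a difference of 1.66 (standard error 0.28, adjusted p = 0.0197, edgeR). P4HA2, which hydroxylates collagen, was at 80.9, 86.5 and 99.2 CPM and 237, 244 and 192 CPM in OVCAR3 and at 57.8, 60.4 and 54.6 CPM and 294, 323 and 262 CPM in CCL218, with a difference of 1.01. The window of BHLHE40 (chr3:4979187-4979486, plus strand) holds 4 matches to ACGTG over both strands, in capitals, of which 2 overlap.
BHLHE40: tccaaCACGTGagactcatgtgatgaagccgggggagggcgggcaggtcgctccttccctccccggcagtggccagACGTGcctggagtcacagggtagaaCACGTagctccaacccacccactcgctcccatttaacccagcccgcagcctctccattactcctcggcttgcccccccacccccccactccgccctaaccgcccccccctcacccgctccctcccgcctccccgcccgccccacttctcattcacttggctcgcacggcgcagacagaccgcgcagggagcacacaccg
Windows were found for 23 of the 28 hypoxia targets outside energy metabolism, 27 in all, and 17 of these (63%) held ACGTG, beside 21.4% of all windows. Of the 28 genes, 2 were called higher in CCL218 (against 0.690%) and 10 had an unadjusted p under 0.05 (beside 9.11% of all). For 26 the difference was above 0, with a median of 0.37. In OVCAR3 16 rose and 1 fell, beside 4.42% and 4.81% of all tested genes. In CCL218 20 rose and 0 fell, beside 2.86% and 2.32%. DESeq2 called 5 higher and limma voom 2, and without both libraries that stood apart 4 were higher and 1 lower. NDRG1, VEGFA and ANGPTL4 had differences of 1.97, 0.81 and 1.80 and were not called. Glycolytic genes, also driven by HIF, had 0 calls of 24 with edgeR, DESeq2 or limma voom (1 at an unadjusted p under 0.05). Their median difference was 0.08, with ALDOC at 0.70. Of them 19 rose in OVCAR3 (beside 4.42% of all tested genes) and 16 in CCL218 (beside 2.86%).

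The other genes called under both labels with the same sign were ELFN2, a synaptic adhesion protein (1.27 in OVCAR3 and 3.78 in CCL218), NDNF, a secreted neurotrophic factor (0.90 and 2.48), the antisense RNA SSTR5-AS1 (-3.68 and -1.92), DBN1, an actin-binding protein (-1.91 and -0.78), and the noncoding RNA LINC02432 (2.10 and 0.81). ELFN2 was at 3.94, 6.09 and 2.77 CPM in control and 9.36, 11.7 and 9.59 CPM in HCQ-evolved OVCAR3, and at 2.36, 2.61 and 2.01 CPM and 28.02, 35.02 and 33.1 CPM in CCL218. The strand setting of the counting is not given in the sources used here, so reads of SSTR5-AS1 and of genes on the other strand may not be told apart.

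The ATF4 stress response had 0 calls of 33 with edgeR, and 8 had an unadjusted p under 0.05 (beside 9.11% of all). DESeq2 called 5, limma voom 2, and 8 were called without both libraries that stood apart. GDF15, a secreted stress factor, fell by 2.92 in OVCAR3, and its difference of 2.75 missed the threshold (adjusted p = 0.0677). MT1X, a metal-binding protein and the smallest p of 6 metallothioneins with 0 calls (1 at an unadjusted p under 0.05, 1 call with DESeq2, 0 with limma voom), had a difference of 2.88 (adjusted p = 0.0841). Of 26 listed replication-dependent histones, only 12 passed the filter in this polyadenylated RNA. These had 12 of 12 differences above 0 and 0 calls (1 at an unadjusted p under 0.05, 1 call with each of the other tools). H2BC21 was at 0.96 (adjusted p = 0.0519, edgeR). PMAIP1, which promotes apoptosis, had a difference of 1.69 (adjusted p = 0.0636).

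Genes of the autophagy machinery and of lysosomes had median changes of 0.03 to 0.07 under both labels and 0 calls of 39 and of 38 with edgeR. Of the 39 autophagy genes 2 rose in OVCAR3, and 4 rose and 1 fell in CCL218. Of the 38 lysosomal genes 3 rose in OVCAR3 and 1 in CCL218. Among all tested genes 4.42% rose in OVCAR3, and 2.86% rose and 2.32% fell in CCL218. CALCOCO2, an autophagy receptor, had a difference of 0.75 (adjusted p = 0.131), and GUSB, a lysosomal enzyme, -0.61. Lists of HLA class I presentation, NF-kappaB targets, cholesterol synthesis, the unfolded protein response, NRF2 targets, exocytosis, apoptosis, large and small ribosomal proteins, ribosome biogenesis and the respiratory chain also had 0 calls each with edgeR and median differences between -0.18 and 0.17. In these and the autophagy and lysosome lists 0 to 5 members had an unadjusted p under 0.05, DESeq2 called 0 to 3, and limma voom called 0 except for 1 apoptosis gene. Members of smallest p in these lists included TAPBPL (0.43), ICAM1 (0.80), PDIA4 (-0.53), GCLM (-0.81), SYTL2 (1.72), RPL21 (-1.06), RPS10 (-0.62), UTP15 (-0.34) and COX8A (-0.63), besides PMAIP1. Ribosomal proteins of the large and small subunit had medians of -0.39 and -0.34 in OVCAR3 and -0.41 and -0.38 in CCL218, with 0 members called under either label.

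Of 22 drug efflux and cytochrome P450 genes 2 were called higher, CYP2J2 and CYP4F3 (9.09%), and of 13 metalloproteases and inhibitors 2, MMP14 and TIMP2 (15.4%), beside 0.690% of all tested genes. DESeq2 called 4 higher and 2 lower in the first list and 3 higher in the second, and limma voom 2 higher in each. Matrix and integrin genes had 0 calls of 23 (2 at an unadjusted p under 0.05) with COL7A1 at 1.32, and epithelial to mesenchymal genes 0 of 10 (3 at an unadjusted p under 0.05) with OVOL1 at 0.57, by edgeR, against 0 and 1 with DESeq2 and 0 each with limma voom. Muellerian and ovarian markers had 0 calls of 8 with edgeR, DESeq2 or limma voom (2 at an unadjusted p under 0.05) and 1 higher without both libraries that stood apart, with MSLN at 1.81. COL1A1, CD68 and PECAM1, each the 1 tested marker of fibroblasts, blood cells and endothelium, had differences of 0.67, 0.73 and 0.36 and were not called by edgeR, DESeq2 or limma voom, and CD68 rose under both labels.

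**Figure D5:**
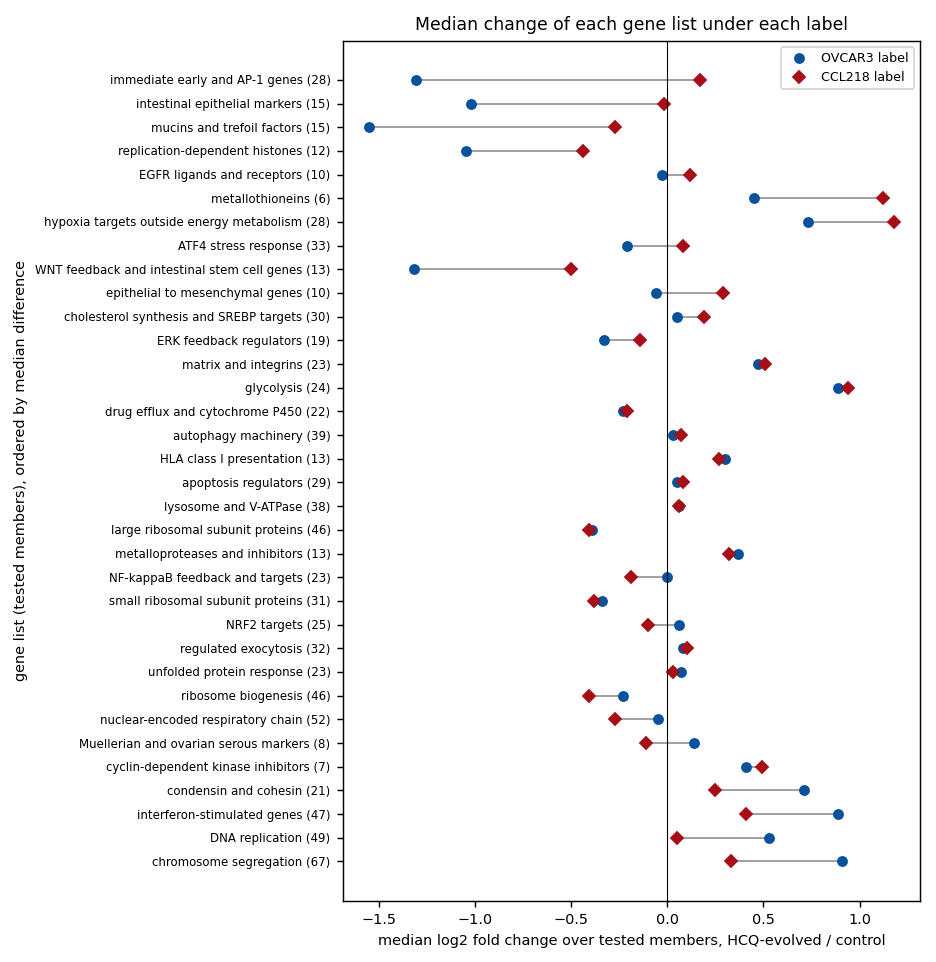
Median log2 fold change of HCQ-evolved over control pools (horizontal axis) over the tested members of each list of at least 5 tested genes, in OVCAR3 (circles) and CCL218 (diamonds), ordered by the median difference. Immediate early genes stand at -1.31 and 0.17, chromosome segregation at 0.91 and 0.33, and glycolysis at 0.89 and 0.94.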

How the data were processed

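Each sample's counts of reads per gene were deposited by the authors, who aligned reads to hg38 with STAR, removed duplicates with RmDup and counted with featureCounts (versions and strand setting are not given in the sources used here). Of entries of 1 to 4 counts, 78.9% were even, so both mates of a pair may have been counted. In R 4.3.3 with edgeR 4.0.16, library sizes were scaled by TMM, the filter was 1 CPM in 3 or more libraries, 4 group means were fitted to all 12 libraries, and contrasts were tested by the robust quasi-likelihood F test with Benjamini-Hochberg adjustment over 12613 genes (threshold 0.05). Levels are TMM-scaled CPM, which compare a gene between libraries and not genes with each other. DESeq2 1.42.0, limma voom 3.58.1, other scalings and filters, halved counts, plate position as a block, a length and GC offset and omitted libraries were alternatives. Positions, lengths and GC content came from GENCODE 44 (25490 of 28278 symbols matched, 90.1%), and promoters from RefSeq (GRCh38.p14). Fewer cells of a type and less RNA per cell cannot be told apart in pools. Named genes are the 4 largest differences and 2 smallest p of each pattern of calls, the smallest p of each of 37 lists, the 4 most abundant calls and the extremes, and others were named after their values were seen. Some genes are not reported here. Members and lists were chosen with earlier results of these data known.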

Additional observations from a re-analysis of the deposited data

Results flagged for a closer look

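For the 69 called genes named above, the change with HCQ evolution differed between the labels by edgeR's test of the difference itself. The differences in log2 fold change (CCL218 minus OVCAR3) follow, from 3 pools a group, grouped by how the calls fared when libraries were left out.

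A first set of genes was called in all 12 fits that left out 1 library. It held the immediate early genes EGR3 (8.44), ATF3 (4.72), EGR2 (4.03), NR4A1 (2.90), KLF2 (2.60), FOSB (2.56), KLF4 (2.50) and BTG2 (2.27), and the signalling genes HBEGF (3.43), DUSP5 (2.75), INSR (2.51) and TRIB1 (2.06). BNIP5 (3.78), ID3 (3.49), RASD2 (2.77), CDKN1A (2.56), CKAP4 (1.85), TRIP6 (-1.96) and ZNF655 (-1.86) belonged to it among genes with opposite signs. So did CDH17 (3.71), CEACAM6 (3.56), SERPINE2 (1.78), PCK1 (3.84), ELFN2 (2.52) and IFI44L (-3.04). CYP2J2 (3.46) is not part of this set. It was called in the 9 such fits in which it passed the filter. Fits without an HCQ-evolved CCL218 pool could not test it, so its dependence on single pools of that group was not tested.

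A second set was called in 6 to 11 of the 12 fits. It held MUC5B (2.81), PTPN7 (-3.93), CNKSR3 (-2.58), RFC3 (-1.50), COL16A1 (-1.39), BHLHE40 (1.66), MAFF (1.28), MMP14 (1.24), RASD1 (4.11), CCND1 (1.28), CYP4F3 (2.17), SYT17 (3.21), CCN2 (3.60), EPHB2 (2.57) and TRIP13 (-1.02).

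The other named genes were called in 1 to 5 of the 9 or 12 such fits that tested them. Among immediate early genes these were CCN1 (2.14), EGR4 (2.40), JUN (2.03), ARC (2.45), NR4A2 (1.58) and FOS (1.38). Higher in CCL218 were also HES1 (3.54), PTP4A3 (4.50), MEP1A (4.78), CEACAM7 (2.91), CEACAM5 (2.07), SSTR5-AS1 (1.76), NDNF (1.59), SLC6A8 (1.48), ATP7B (1.18), DBN1 (1.13), TIMP2 (1.07), P4HA2 (1.01) and ATP1B1 (0.99). Lower in CCL218 were SCN9A (-6.48), HEY2 (-4.40), AASS (-3.05), NNMT (-2.31), KLHL5 (-2.11), MX2 (-1.73), LINC02432 (-1.28), GJB2 (-0.91) and POLA2 (-0.91).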

How the results depend on the processing

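The direction of all 110 calls was kept in every fit that tested them. Of the 110, 37 were called in all 12 fits that left out 1 library, 32 in all 14 other alternatives and 25 in both. A gene that a fit did not test counts here as not called in it. Counts moved more. Genes higher in CCL218 (87) numbered 35 to 163 with 1 library left out, genes lower in CCL218 (23) numbered 3 to 49, and those with opposite signs (69) numbered 23 to 127. Calls in all fell by over 1.5 times without control OVCAR3 L (68), M (60) or R (68), HCQ-evolved OVCAR3 M (72), control CCL218 M (55) or R (51) or HCQ-evolved CCL218 L (46), M (38) or R (67), and rose without HCQ-evolved OVCAR3 R (212). Of the 69 named calls, 42 were lost without HCQ-evolved CCL218 M and 1 without HCQ-evolved OVCAR3 R. With that library and control CCL218 L both left out, chosen after seeing the data, 258 genes were higher, 84 lower and 220 opposite. DESeq2's Wald test gave 306, 157 and 288. The length and GC offset, for 96.3% of tested genes, gave 241, 211 and 298. Of the 25 genes that the naming rule gave and that were not called, 18 were called in at least 1 alternative.

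Same-position pools deviated together in some pairs and not in others, so plate position was not taken to pair the pools. The correlation of the deviations of same-position pools was 0.401, -0.665 and -0.478 (L, M and R) in OVCAR3 and 0.506, 0.233 and 0.195 in CCL218. Across the labels it was 0.846, 0.804 and 0.237 for control pools and 0.509, -0.119 and 0.514 for HCQ-evolved pools. A replicate block for position within each label gave 34 genes higher, 1 lower and 26 with opposite signs, and 43 named calls were lost, RFC3 (adjusted p = 0.0919) and POLA2 (adjusted p = 0.22) among them by edgeR. The block with the length and GC offset gave 40 lower genes, and a block shared by the labels gave 110 higher and 32 lower, and in both of these fits RFC3 and POLA2 were called. The cause of these moves was not tested. With 3 pools a group from one plate, a gene without a call is not shown to change alike under the labels.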

Other observations

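Genes of 3 chromosomes had differences below 0 as a group, a pattern that was looked for after the data had been seen and that has no test here. On chromosome 7, 596 tested genes had a median difference of -0.298 and 80.5% of them lay below 0. On chromosome 13 (224 genes) the median was -0.273 with 76.8% below 0, and on chromosome 11 (720 genes) -0.197 with 68.3%. The other chromosomes had medians of -0.069 to 0.064. Relative to the mean of control pools of the same label, the median of chromosome 7 genes was 0.161, 0.16 and 0.093 in HCQ-evolved OVCAR3 (L, M and R) and -0.1, -0.113 and -0.119 in HCQ-evolved CCL218, and -0.022 to 0.06 in control pools. Chromosome 11 was near 0 in HCQ-evolved OVCAR3 (-0.095 to 0.003) and at -0.197 to -0.18 in HCQ-evolved CCL218, with -0.044 to 0.084 in control pools. Chromosome 13 was at 0.059 to 0.154 in HCQ-evolved OVCAR3, where control pools at -0.093 to 0.09 overlapped, and at -0.225 to -0.126 in HCQ-evolved CCL218, against -0.124 to 0.056 in control pools.

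The values were not even along these chromosomes. On chromosome 13, genes between 20 and 30 Mb, where SKA3, GJB2 and RPL21 lie, had a median difference of -0.723 (44 genes). Those between 30 and 40 Mb, where RFC3 lies, had -0.78 (24 genes), and those between 40 and 50 Mb -0.156 (51 genes). On chromosome 7 the medians were -0.123 between 0 and 10 Mb (64 genes) and -0.469 between 70 and 80 Mb (54 genes). They were -0.451 between 90 and 100 Mb (50 genes), where ZNF655 lies, and -0.348 between 150 and 160 Mb (44 genes), where NCAPG2 lies. On chromosome 11 they were -0.331 between 0 and 10 Mb (104 genes), -0.235 between 60 and 70 Mb (204 genes), where POLA2 lies, and 0.008 between 70 and 80 Mb (70 genes). Over all alternatives the medians of chromosomes 7, 11 and 13 stayed below 0. A chromosome median near 0 can hide parts that differ. On chromosome 22 (median 0.054) genes between 20 and 30 Mb had -0.211 (76 genes). Those between 30 and 40 Mb, where RASD2, ELFN2 and MAFF lie, had 0.218 (102 genes), and those between 40 and 50 Mb 0.202 (75 genes). Relative to control pools, chromosome 22 was at -0.008, -0.011 and 0.294 in HCQ-evolved OVCAR3 (L, M and R).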
